A study of Mus musculus with 9 samples.

Results

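Dysplastic submandibular glands of Smgb-Tag mice were compared with glands of the same line labelled normal, 3 arrays of each, out of the 9 arrays of the series. The arrays were chosen by their titles alone, dysplasia 1, 2 and 3 against normal 1, 2 and 3, and the other 3 arrays came from adenocarcinomas. All 9 glands carried the transgene, which by its name joins the regulatory region of Smgb, a secreted protein gene of the immature submandibular gland, to the simian virus large T antigen. The glands labelled normal are therefore transgenic glands with no tumour stage recorded, and no gland without the transgene was analysed here. The labels give neither strain, sex nor age, and do not say whether the replicates of a group came from separate mice, so the spread between arrays may be technical.

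The rodent submandibular gland makes saliva in serous acini, modifies it in ducts, and in its granular convoluted tubules stores growth factors and kallikrein proteases under androgen control. Large T antigen binds and disables the retinoblastoma proteins, which frees the E2F factors that drive genes of DNA replication, and it also binds p53. Dysplasia is the stage in which epithelial cells are disordered and divide too often but have not invaded. Expression was read on Illumina BeadChips as normalized intensities and is given here as log2 intensity. A difference of 1 is a doubling, and the level taken as background is 6.36. Of the genes on the array, 12553 had a probe above background on at least 3 of the 9 arrays and were tested. Values of 3 arrays are listed in the order 1, 2 and 3.

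The array labelled normal 3 lay apart from normal 1 and 2. Between normal 1 and normal 2 only 88 genes (0.701%) differed by at least 2-fold, whereas normal 3 differed by that much from normal 1 at 3015 genes and from normal 2 at 2873. From dysplasia 2 it differed at 545 genes (4.34%), fewer than the 747 genes (5.95%) that separated dysplasia 1 from dysplasia 2. The dysplasia arrays themselves were unequal, with 2199 genes (17.5%) at least 2-fold apart between dysplasia 1 and 3 and 1370 between dysplasia 2 and 3. Normal 3 keeps its label throughout and each gene is given with its value. The Y-linked gene Eif2s3y was at 10.15 to 11.17 on the dysplasia and normal arrays by its brighter probe. No probe of Xist, the RNA of the inactive X, exceeded 6.41 on them, so these glands read as male. Markers of the gland were present where the labels place them: all 8 acinar markers tested and all 3 tubule markers tested lay above background on every dysplasia and normal array, and all 8 duct markers on every normal array.

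With all arrays in the fit, 0 of 12553 genes (0%) passed an adjusted p of 0.05 in limma with Benjamini-Hochberg adjustment, and the lowest adjusted p was 0.103. At an unadjusted p under 0.05, dysplasia exceeded normal at 1519 genes (12.1%) and lay under it at 1281 (10.2%). The 3 dysplasia arrays and the 3 normal arrays did not overlap for 2881 genes (23%), with dysplasia on top for 1557 (12.4%) and below for 1324 (10.5%). When normal 3 was left out, 1582 genes (12.6%) passed the same adjusted threshold upwards and 1429 (11.4%) downwards, and 2094 of these differed by at least 2-fold. Of the genes called in this way, 672 higher (5.35% of all tested) and 663 lower (5.28%) also had no overlap with normal 3 included. Leaving out normal 3 was decided with its values known and sets 3 dysplasia arrays against 2 nearly equal normal arrays, so those p-values are too small. Below, rose and fell are written only of genes past the adjusted threshold without normal 3, the log2 differences called so are from that fit unless all 9 arrays are named, and no gene named passed on all 9 arrays.

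Normal 3 did not enter those calls, but it was left out because it was known to lie near dysplasia, so its place on the called genes is a description and no independent check. On 1676 of the 3011 called genes (55.7%) normal 3 lay within the range of the dysplasia arrays or beyond it, on 1261 (41.9%) between them and the other normal arrays, and on 74 (2.46%) within the range of normal 1 and 2 or beyond. Its place on each gene was expressed on a scale where 0 is the mean of normal 1 and 2 and 1 the mean of the dysplasia arrays. The median place was 0.87 on the genes that rose and 0.881 on those that fell. The place differed between groups of genes, as the following paragraphs describe: genes of cell division lay near 1, secreted proteins of the acini near 0.2, and most other groups between. Granular convoluted tubule products had too few called genes for a median place, but by list median normal 3 was also nearer to normal 1 and 2 there.

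**Figure D1:**
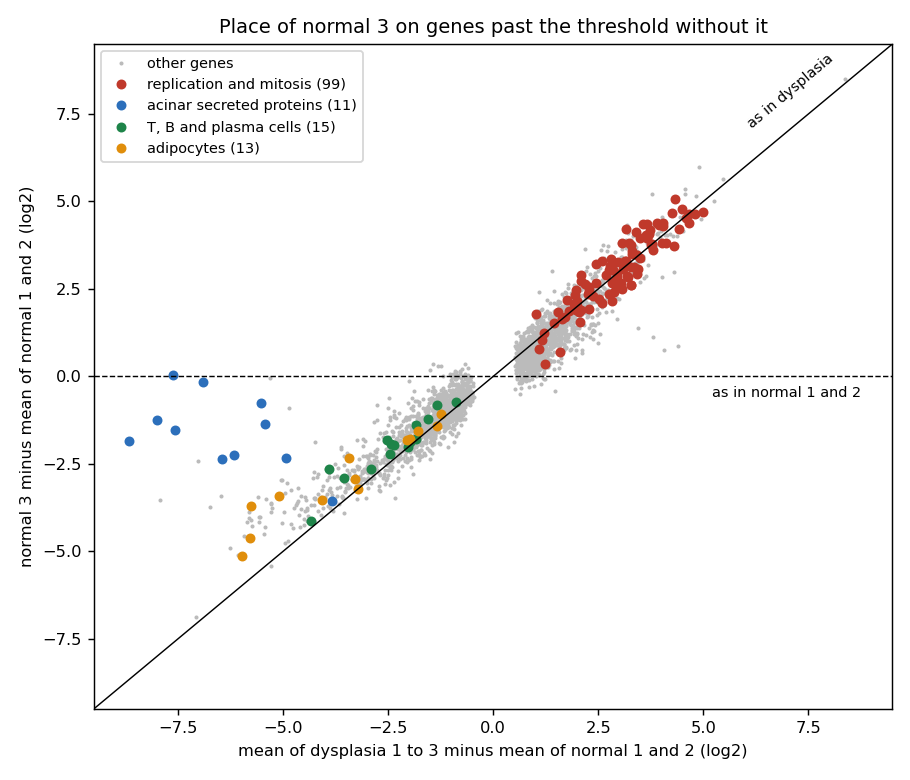
Each point is 1 of the 3011 genes past an adjusted p of 0.05 without normal 3. The horizontal axis is the mean of dysplasia 1 to 3 minus the mean of normal 1 and 2, and the vertical axis is normal 3 minus the mean of normal 1 and 2, both in log2, so that a gene on the diagonal has the same level on normal 3 as in dysplasia and a gene on the horizontal line the same as on normal 1 and 2. Cell division genes lie along the diagonal (median places of 1.00 to 1.06 by list), and acinar secreted proteins lie toward the horizontal line (median 0.214), except Azgp1, which lies near the diagonal.

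Genes that load and fire replication origins were higher on every dysplasia array than on normal 1 and 2. Of 19 tested, 18 rose and 0 fell, where 12.6% of all tested genes were called higher and 11.4% lower. The median level of the 19 was 10.97, 11.40 and 10.25 on the dysplasia arrays, against 7.51, 7.69 and 10.82 on the normal arrays. Mcm6, a subunit of the replicative helicase, was at 13.29, 12.92 and 12.56 in dysplasia, against 8.23, 9.39 and 12.63 in normal glands, a log2 difference of 4.12 ± 0.39 (SE, adjusted p = 0.00142). Normal 3 lay among the dysplasia arrays for this gene, and on all 9 arrays the difference was 2.84 ± 0.96 (adjusted p = 0.174). Mcm5, of the same helicase, was at 13.22, 13.36 and 12.43 in dysplasia, against 9.24, 9.46 and 13.31 in normal glands. Mcm10 and Gins2, which help to start the helicase, and Dbf4, the activator of the origin kinase, rose by 4.05, 3.49 and 3.42. For 17 of the 18 genes that rose, normal 3 was within the dysplasia range or beyond.

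Enzymes that copy DNA and supply its building blocks showed the same pattern of arrays, with 19 of 22 higher at the threshold and 0 lower. Over all tested genes 12.6% were called higher and 11.4% lower, and these shares hold for each list of this paragraph. Thymidine kinase Tk1 was at 11.96, 11.88 and 10.94 in dysplasia, against 6.98, 7.57 and 12.34 in normal glands, so normal 3 exceeded all 3 dysplasia arrays. The clamp loader subunits Rfc4 and Rfc5 rose by 3.34 and 2.92, the polymerase delta catalytic subunit Pold1 by 2.86 and the ribonucleotide reductase subunit Rrm1 by 2.83. Of 12 chromatin assembly genes 10 rose. They included Chaf1b of the histone chaperone that follows the fork (4.52), Uhrf1 and Dnmt1, which copy DNA methylation (3.88 and 2.39), and the chromatin protein Hmgb2 (3.14). Of 21 DNA repair and checkpoint genes 12 rose, among them the recombination motor Rad54b by 3.93 and the fork protector Timeless by 2.53, and normal 3 was in the dysplasia range or beyond for all 12.

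Genes of mitosis behaved alike. Of 23 kinetochore and centromere genes 21 rose, of 20 spindle kinesin and cytokinesis genes 19 rose, and of 25 mitotic kinase, anaphase-promoting complex and condensin genes 22 rose, and 0 genes of these 3 lists fell, where 12.6% of all tested genes were called higher. Cdc20, the activator of the anaphase-promoting complex, was at 12.80, 12.91 and 12.13 in dysplasia, against 7.43, 8.46 and 12.58 in normal glands, a log2 difference of 4.67 ± 0.41 (adjusted p = 0.00125, and 0.182 on all 9 arrays). Spag5, a spindle and kinetochore protein, was at 12.82, 11.91 and 10.56 in dysplasia, against 6.58, 6.96 and 11.47 in normal glands. Normal 3 sat among the dysplasia arrays for both genes, and dysplasia 3 was the lowest of the 3 dysplasia arrays. Cenpa, the histone that marks the centromere, separated the groups fully, at 14.56, 14.89 and 14.33 in dysplasia against 10.21, 10.39 and 14.03 in normal glands. The motor Kif22 rose by 4.66, the cytokinesis scaffold Anln by 4.50, the kinases Plk1 and Aurka by 4.58 and 4.42, and topoisomerase Top2a by 4.26.

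**Figure D2:**
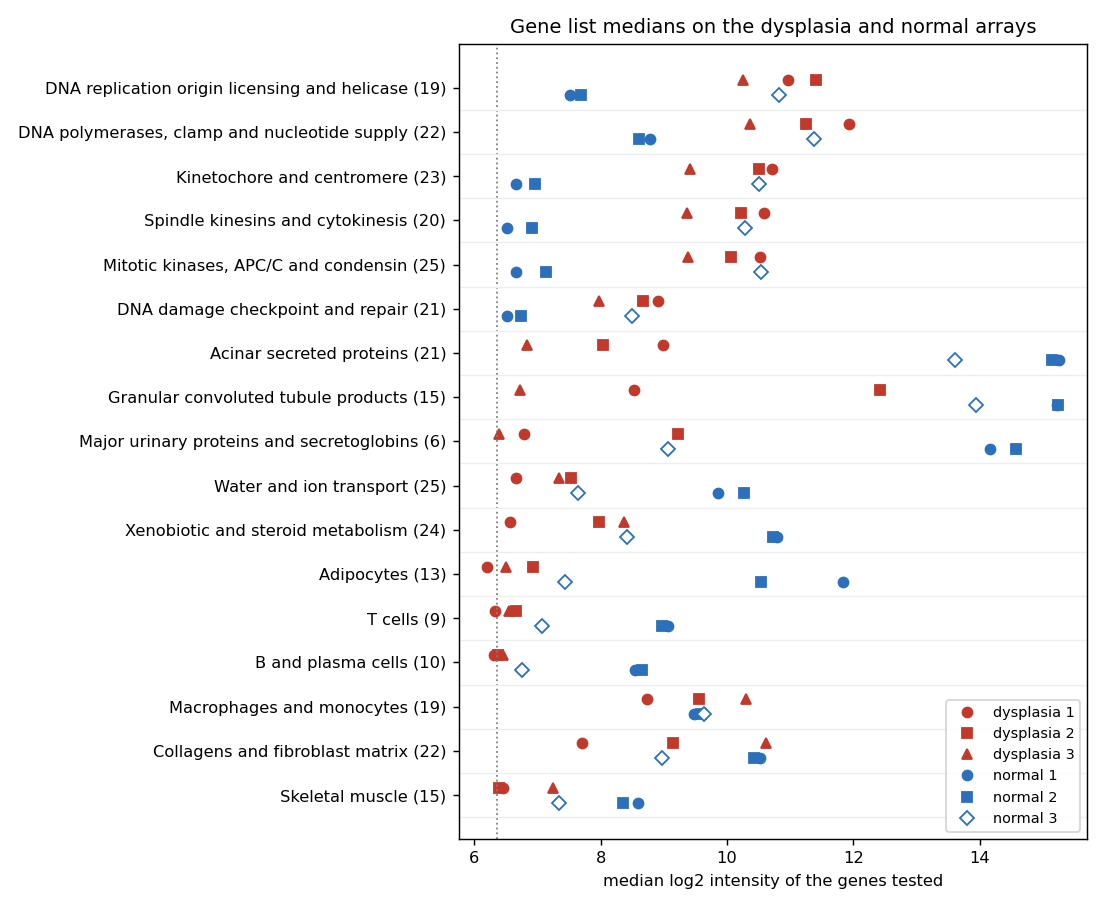
Median log2 intensity over the tested genes of selected lists (number tested in brackets), 1 point per array, with dysplasia arrays in red and normal arrays in blue, and normal 3 drawn open. The dotted line is the background level of 6.36. For the lists of cell division normal 3 lies with the dysplasia arrays, for example 10.82 on normal 3 against 10.25 to 11.40 in dysplasia and 7.51 and 7.69 on normal 1 and 2 for replication origins.

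Because these genes moved together, their promoters were searched for the sequences that cell cycle factors are known to bind. Promoters are the 300 bases around the annotated start, most of them upstream (RefSeq, GRCm38.p6), and both strands were searched. The E2F letters searched were TTTCCCGC, TTTCGCGC, TTTGCCGC and TTTGGCGC, which can overlap their own reverse match. Of 37 replication genes that rose, 29 had a promoter in the table, and 9 of these (31%) held E2F letters, against 3.82% of 10132 tested genes with a promoter and 2.32% of all 27025 promoters. Of 62 mitosis genes that rose, 55 had a promoter. The cell cycle homology region TTTGAA stood in 37 of them (67.3%), against 12.4% of tested genes and 18.1% of all promoters. The CCAAT box CCAAT also stood in 37 of the 55 (67.3%, against 38.4% and 37.9%). The 2 sets of 37 largely coincided, as 30 promoters held both motifs (54.5%, against 5.14% and 7.12%). Each set came from lists of known replication or mitosis genes, narrowed by direction here, so the shares describe such genes. Shares were not computed for list members that did not rise or for other genes that rose. A match is a description of the letters, not a site shown to be bound. Of the replication genes with E2F letters, the pair with the largest log2 differences is printed first. The E2F letters are in capitals, and where they run on in capitals a match on the other strand overlaps.
Mcm6 (chr1:128359656-128359955, minus strand): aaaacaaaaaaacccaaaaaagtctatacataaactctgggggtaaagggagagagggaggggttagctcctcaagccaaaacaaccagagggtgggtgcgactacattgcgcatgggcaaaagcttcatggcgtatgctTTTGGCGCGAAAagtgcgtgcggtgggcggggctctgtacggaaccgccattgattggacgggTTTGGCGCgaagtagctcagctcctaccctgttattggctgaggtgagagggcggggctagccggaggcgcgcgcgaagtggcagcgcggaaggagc
Mcm5 (chr8:75109259-75109558, plus strand): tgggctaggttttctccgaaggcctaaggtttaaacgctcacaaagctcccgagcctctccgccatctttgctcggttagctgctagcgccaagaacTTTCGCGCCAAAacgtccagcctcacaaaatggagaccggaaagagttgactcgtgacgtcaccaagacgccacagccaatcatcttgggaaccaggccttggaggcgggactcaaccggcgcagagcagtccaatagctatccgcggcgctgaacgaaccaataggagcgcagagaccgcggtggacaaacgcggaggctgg
Of the mitosis genes with both other motifs, the pair with the largest differences follows, with the homology region and CCAAT boxes of either strand in capitals.
Spag5 (chr11:78301341-78301640, plus strand): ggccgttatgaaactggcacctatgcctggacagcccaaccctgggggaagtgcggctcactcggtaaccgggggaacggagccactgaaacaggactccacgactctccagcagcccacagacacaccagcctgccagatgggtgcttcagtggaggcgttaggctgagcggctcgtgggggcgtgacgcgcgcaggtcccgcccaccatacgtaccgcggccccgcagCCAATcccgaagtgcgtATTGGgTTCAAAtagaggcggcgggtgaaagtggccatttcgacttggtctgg
Cdc20 (chr4:118437294-118437593, minus strand): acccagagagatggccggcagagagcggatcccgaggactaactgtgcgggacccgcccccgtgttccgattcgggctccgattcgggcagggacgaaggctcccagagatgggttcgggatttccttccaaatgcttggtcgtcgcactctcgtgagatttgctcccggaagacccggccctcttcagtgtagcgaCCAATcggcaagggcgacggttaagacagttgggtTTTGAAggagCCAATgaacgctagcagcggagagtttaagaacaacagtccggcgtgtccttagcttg

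Upstream regulators of the cell cycle rose less uniformly. Of 16 E2F, retinoblastoma family and B-Myb genes 8 rose and 1 fell, where 12.6% of all tested genes were called higher and 11.4% lower. E2f1 was at 11.45, 11.37 and 10.75 in dysplasia, against 8.25, 8.43 and 11.40 in normal glands. B-Myb (Mybl2) rose by 3.80, the mitotic transcription factor Foxm1 by 2.71 and the retinoblastoma relative p107 (Rbl1) by 2.62. Among 13 cyclins and cyclin-dependent kinases 5 rose and 3 fell: the S phase and mitosis genes Cdk1 and Cdk2 rose by 3.90 and 1.89 and Ccne2, below background on normal 1 and 2, at least 3.35-fold, while Ccnd2, a cyclin of early G1, and Ccng1 fell, with log2 differences of -2.49 and -1.24. The 3 probes of Ccnd2 did not share a sign.

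Inhibitors of cyclin-dependent kinases were also high in dysplasia. Cdkn2a, whose transcripts encode the p16 inhibitor and the p53 activator ARF, was at 10.94, 10.78 and 11.25 in dysplasia, against 6.06, 6.04 and 10.56 in normal glands. Normal 1 and 2 were below background, so the rise without normal 3 was at least 24.8-fold, and normal 3 lay just under the lowest dysplasia array. Cdkn2b, its neighbour encoding p15, was at 10.52, 10.67 and 12.75 in dysplasia, against 8.35, 7.31 and 10.52 in normal glands, where normal 3 was just under the lowest dysplasia array. Cdkn2d and Cdkn3 rose by 2.35 and 3.99, and Cdkn2c by 0.94 with probes that disagreed in sign. Cdkn1a, a p53 target encoding p21, was at 8.97, 9.05 and 12.11 in dysplasia against 9.94, 9.23 and 10.43 in normal glands, so the groups overlapped and only dysplasia 3 was high. Of 20 p53 target genes 1 rose and 1 fell, below the shares over all tested genes of 12.6% called higher and 11.4% lower. Of 20 DNA methylation and Polycomb genes 7 rose and 0 fell, to be set against the same shares. Those that rose included the methyltransferase Ezh2 of Polycomb complex PRC2 at 10.46, 10.94 and 11.36 in dysplasia, against 8.33, 8.45 and 10.58 in normal glands.

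Most secreted products of the acini were lower in dysplasia, and here normal 3 was nearer to the other normal arrays than to dysplasia. Of 21 tested, 13 had every dysplasia array below every normal array, as had 10.5% of all tested genes. Without normal 3, 11 fell and 0 rose, where 11.4% of all tested genes were called lower and 12.6% higher. The list median was 8.98, 8.03 and 6.84 in dysplasia, against 15.25, 15.14 and 13.61 in normal glands, and the median place of normal 3 was 0.214. For 10 of the 11 genes that fell normal 3 lay between the dysplasia arrays and normal 1 and 2, and for 1 within the range of normal 1 and 2 or beyond. On all 9 arrays 2 of the 21 were above 0. Bpifb1 of this list was at 7.14, 11.28 and 14.28 in dysplasia against 7.85, 6.11 and 9.17 in normal glands. Prol1 overlapped, at 10.13, 14.29 and 10.15 in dysplasia against 15.56, 15.58 and 12.91 in normal glands. Smr3a, a salivary prohormone, was at 9.55, 7.28 and 6.53 in dysplasia, against 15.40, 15.43 and 15.44 in normal glands, a log2 difference on all 9 arrays of -7.64 ± 1.12 (adjusted p = 0.109). These normal values are near the brightest on the arrays, so their likeness may come from the top of the scale. A dimmer probe of the gene gave 7.58, 6.21 and 6.16 in dysplasia against 14.91, 14.63 and 12.69 in normal glands, with normal 3 below normal 1 and 2. Chia1, an acidic chitinase, was at 11.28, 7.35 and 6.76 in dysplasia against 15.34, 15.41 and 15.22 in normal glands. The secreted nuclease Dnase1 had 7.93, 6.33 and 6.15 in dysplasia, of which only dysplasia 1 was above background, against 15.61, 15.33 and 13.61 in normal glands. Normal values near 15 approach the brightest intensity on the arrays, 15.63, so these differences may be understated.

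Aqp5, the water channel of the acinar surface, did not share this pattern. It was at 13.72, 14.02 and 14.40 in dysplasia against 13.87, 14.14 and 14.63 in normal glands, and the groups overlapped. The chloride entry transporter of the same cells, Slc12a2, was at 15.49, 15.47 and 15.28 in dysplasia against 14.999, 15.20 and 15.43 in normal glands. In tissue RNA, fewer acinar cells and less secretory RNA per acinar cell cannot be told apart.

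Products of the granular convoluted tubules were lower too, with more spread within dysplasia. Of 15 tested, 12 had every dysplasia array below every normal array (10.5% of all tested genes) and 0 the reverse (12.4%), but only 2 fell past the threshold, Klk1b1 and Klk1b24. The list median was 8.53, 12.42 and 6.72 in dysplasia, against 15.22, 15.25 and 13.94 in normal glands, so dysplasia 2 held more of these transcripts than dysplasia 1 and 3. By this median normal 3 was nearer to normal 1 and 2 than to any dysplasia array, as for the acinar proteins. Klk1b1, a glandular kallikrein, was at 7.05, 8.65 and 6.52 in dysplasia and 15.26, 15.39 and 11.79 in normal glands, a log2 difference of -7.92 ± 2.02 (adjusted p = 0.0302). Egf, epidermal growth factor, was at 8.73, 12.10 and 8.12 in dysplasia against 15.22, 15.31 and 13.94 in normal glands, and Egfbp2, its binding kallikrein, at 8.82, 13.12 and 6.62 against 15.10, 15.04 and 14.23. Kallikrein genes are close copies of each other and their probes may cross-react. The major urinary proteins and secretoglobins, small carriers of pheromones, fell in 5 of 6 cases, where 11.4% of all tested genes were called lower. The filter on dim probes left 6 of the 12 on the array to test. Mup2 was at 7.18, 10.16 and 6.54 in dysplasia and 14.32, 15.07 and 10.96 in normal glands, and Scgb1b27 at 6.38, 8.28 and 6.25 against 13.99, 14.08 and 7.16. For Scgb1b27 normal 3 lay inside the dysplasia range.

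Transcription factors of acini and ducts fell in 10 of 26 cases and rose in 2, against a background of 11.4% and 12.6%. Elf5, an ETS factor of secretory ducts and mammary alveoli, was at 5.89, 7.64 and 6.26 in dysplasia, against 12.42, 12.62 and 7.96 in normal glands, a log2 difference of -5.92 ± 0.55 (adjusted p = 0.00138). Sox10, which maintains progenitors of acini and myoepithelium, was at 6.20, 6.80 and 6.36 in dysplasia and 11.52, 11.98 and 7.88 in normal glands. For both genes, as for Tfcp2l1 of duct cells (-5.04), Barx2 (-4.66) and Ascl3 of duct ionocytes (-3.70), normal 3 was below normal 1 and 2 and above all dysplasia arrays. Bhlha15, the factor that matures secretory cells, was at 12.24, 11.99 and 10.30 in dysplasia and 13.31, 13.56 and 12.26 in normal glands, separate but not past the threshold (adjusted p = 0.058). Sox9, a factor of distal buds and ducts, was at 13.68, 13.57 and 13.63 in dysplasia against 12.66, 12.58 and 13.62 in normal glands (adjusted p = 0.155).

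Genes of ion transport and of xenobiotic and steroid metabolism fell in similar numbers. Of 25 water and ion transport genes 10 fell and 0 rose, and of 24 xenobiotic and steroid metabolism genes 10 fell and 0 rose. Over all tested genes 11.4% were called lower and 12.6% higher. The beta subunit of the epithelial sodium channel, Scnn1b, was at 6.20, 7.38 and 6.48 in dysplasia, against 12.17, 12.35 and 8.24 in normal glands, and its alpha and gamma subunits Scnn1a and Scnn1g fell, with log2 differences of -2.97 and -4.57. The calcium-activated chloride channel Ano1 was at 8.04, 8.27 and 8.69 in dysplasia against 10.93, 10.95 and 9.10 in normal glands. Fxyd2, a subunit of the sodium pump, and Bsnd, the barttin subunit of chloride channels, fell, at -5.42 and -3.29. Cytochrome P450 Cyp2b10 was at 6.01, 6.56 and 5.75 in dysplasia against 11.80, 11.93 and 7.77 in normal glands. The glucocorticoid-activating enzyme Hsd11b1 was at 6.58, 8.19 and 9.18 in dysplasia against 13.27, 13.60 and 8.94 in normal glands, with normal 3 inside the dysplasia range. Fat markers and some fibroblast markers were also high on normal 1 and 2. Adipoq of fat cells was at 6.20, 9.41 and 7.61 in dysplasia against 13.86, 13.14 and 9.79 in normal glands. Dcn of fibroblasts was at 8.29, 11.04 and 12.41 against 14.30, 14.53 and 11.84. Another fibroblast marker, Col1a2, overlapped, at 7.44, 8.76 and 10.74 in dysplasia against 9.37, 8.60 and 8.51 in normal glands. The part of fat and fibroblasts in the metabolic genes was not tested. The median place of normal 3 was 0.824 on the transport genes called and 0.788 on the metabolic ones, so it stood nearer to dysplasia than on the acinar secreted proteins.

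In the FGF pathway, which drives branching of the developing gland, 3 of 14 genes rose and 2 fell. The ETS factors Etv4 and Etv5 and the phosphatase Dusp6, known readouts of FGF receptor signalling, rose, with Etv4 at 10.94, 9.91 and 9.92 in dysplasia against 6.33, 6.01 and 10.20 in normal glands, at least 14.9-fold above normal 1 and 2, which lay below background. The mesenchymal ligands of branching fell: Fgf10 was at 6.30, 6.38 and 6.30 in dysplasia against 9.16, 9.29 and 6.74 in normal glands, and Fgf7 fell by 1.74. Dusp6 was at 14.79, 15.01 and 15.08 in dysplasia against 12.55, 12.57 and 13.86 in normal glands and did not overlap between the groups. Both counts are few, and the shares over all tested genes were 12.6% called higher and 11.4% lower.

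In the Notch pathway 4 of 17 genes rose and 1 fell, where 12.6% of all tested genes were called higher and 11.4% lower. These shares hold for each list of this paragraph, and the counts are few. Lfng, which adds sugars to the receptors, was at 8.46, 8.53 and 8.58 in dysplasia against 6.34, 6.08 and 8.67 in normal glands, and the feedback inhibitor Nrarp was at 9.53, 9.85 and 10.37 against 7.94, 7.60 and 9.91. The receptor Notch3 rose by 1.07, and Dlk1, a membrane protein related to Notch ligands, was at 15.15, 15.27 and 15.34 in dysplasia against 7.01, 6.75 and 15.39 in normal glands, near the top of the intensity range on 4 arrays. Dtx1, an E3 ligase of the pathway below background on every dysplasia array, fell at least 1.79-fold. Of 10 neurotrophin and GDNF family genes 2 rose and 3 fell. The receptor kinase Ret was at 12.40, 12.35 and 11.22 in dysplasia against 7.15, 7.05 and 13.07 in normal glands, and its family ligand Artn, below background on normal 1 and 2, rose at least 3.69-fold, while the neurotrophin receptor Ngfr was at 6.36, 6.82 and 7.02 against 11.84, 11.68 and 7.59. Of 20 TGF beta and BMP genes 1 rose and 2 fell, fewer than the shares over all genes. Tgfb2, a TGF beta ligand, was at 6.66, 7.41 and 7.24 in dysplasia against 11.88, 11.56 and 7.77 in normal glands, Id4, a target of BMP signals below background on every dysplasia array, fell at least 6.33-fold, and the signal carrier Smad3 rose by 1.90. In the Wnt pathway 1 of 24 genes rose, Fzd1, and 2 fell, both under the shares over all genes. Those that fell were the feedback targets Axin2, at -1.43 with only 1 dysplasia array above background, and Nkd1, at least 2.18-fold lower with none.

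Among genes of cell contacts and survival, the numbers called were small, and the shares over all genes were 12.6% higher and 11.4% lower. Of 16 claudins and tight junction genes 3 rose and 3 fell. Cldn2, a channel-forming claudin, was at 9.17, 11.83 and 12.10 in dysplasia against 6.37, 6.59 and 11.83 in normal glands. Cldn3 and the scaffold Tjp1 rose by 1.30 and 0.94. Cldn1 fell, at -2.27, and Cldn11, below background on every dysplasia array, fell at least 3.14-fold. Of 14 BCL2 family genes 3 rose and 3 fell. The pore former relative Bok was at 12.57, 12.12 and 14.00 in dysplasia against 8.97, 8.68 and 13.17 in normal glands. The death activator Bcl2l11 rose by 1.42, and Bcl2l14 was at 6.44, 6.65 and 6.37 against 11.25, 11.34 and 7.08. Bbc3 and Bcl2l2 had probes that disagreed in sign. Among 15 keratins 0 rose and 3 fell, Krt23, Krt5 and Krt80. Keratins of simple epithelium overlapped between the groups, with Krt8 at 13.66, 13.17 and 14.19 in dysplasia against 12.97, 13.31 and 13.65 in normal glands.

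**Figure D3:**
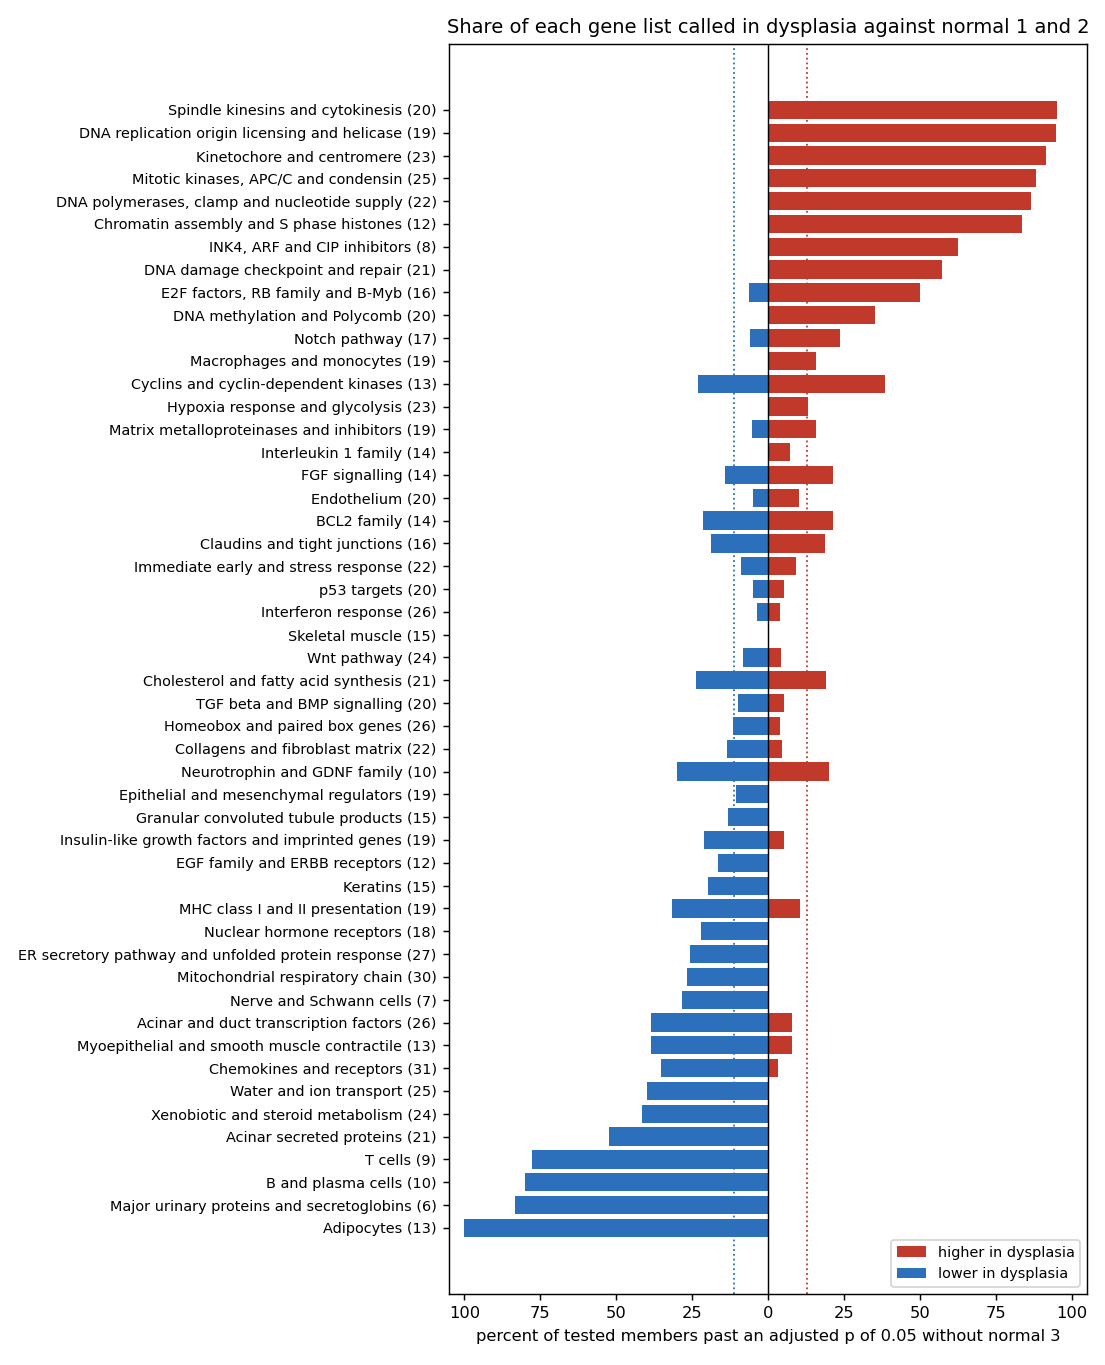
Share of the tested members of each list (number tested in brackets) past an adjusted p of 0.05 without normal 3, with higher in dysplasia drawn to the right in red and lower to the left in blue. The dotted lines give the shares over all tested genes, 12.6% higher and 11.4% lower. Replication and mitosis lists stand far to the right, with 18 of 19 replication origin genes called higher, and adipocyte, B cell and T cell markers to the left, with 13 of 13 adipocyte genes called lower. Members at background in dysplasia were tested only if other arrays exceeded background, which favours the left side for such marker lists.

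The genes that separated all 3 dysplasia arrays from all 3 normal arrays, normal 3 included, held another set. Groups did not overlap and differed by at least 2-fold for 286 genes (2.28%) higher and 478 (3.81%) lower in dysplasia. Tunar, a long RNA of neural and stem cells that also encodes a micropeptide, was at 11.29, 10.19 and 10.86 in dysplasia against 6.63, 6.81 and 7.47 in normal glands, a log2 difference on all 9 arrays of 3.81 ± 0.72 (adjusted p = 0.14). Ffar4, a receptor for long-chain fatty acids, was at 11.48, 12.43 and 12.89 in dysplasia against 9.40, 8.24 and 10.20 in normal glands. Bex4, a microtubule-associated protein, was at 11.39, 8.99 and 9.53 against 6.24, 6.09 and 7.29, and Fgf13, a non-secreted FGF homologue that binds sodium channels, at 9.92, 10.82 and 10.76 against 7.22, 6.90 and 8.18. For these 4 genes normal 3 was nearer to normal 1 and 2 than to dysplasia, with places of 0.185 to 0.401. Kit, the stem cell factor receptor, was at 11.83, 11.60 and 11.48 in dysplasia against 9.87, 9.997 and 9.89 in normal glands, where all 3 normal arrays lay close together. Its unadjusted p was 0.0509 on all 9 arrays and its adjusted p without normal 3 was 0.204, and the adenocarcinoma arrays, which enter the same estimate of spread, ranged from 8.03 to 11.38.

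Mybbp1a, a nucleolar protein that binds Myb and p53, was the second largest of these on its brightest probe, at 10.64, 11.16 and 11.15 in dysplasia against 6.70, 6.45 and 7.44 in normal glands. The other 3 probes of the gene above background differed by only 0.35 to 0.38 on all 9 arrays, so the large difference belongs to 1 probe. The matrix proteases Mmp12 and Mmp13 also separated the groups, Mmp12 at 9.74, 10.48 and 11.64 in dysplasia against 6.19, 6.46 and 9.30 in normal glands and Mmp13 at 8.96, 9.09 and 13.85 against 6.41, 6.43 and 8.92. Several genes among the lowest unadjusted p had small differences and little spread between arrays. The acetyltransferase Crebbp, a coactivator that large T antigen also binds, was at 7.97, 7.97 and 7.98 in dysplasia against 6.84, 6.84 and 6.62 in normal glands (1.21 ± 0.16 on all 9 arrays, unadjusted p = 6.06e-05, adjusted p = 0.109). Trrap, a scaffold of acetyltransferase complexes, was at 8.48, 8.41 and 8.45 against 7.27, 7.003 and 7.40, and Prrc2c and Cep295 also were higher. The histone demethylase Kdm2a was lower, at 9.46, 9.42 and 9.41 in dysplasia against 10.57, 10.67 and 10.62 in normal glands. A dimmer probe of Kdm2a and one of Bcl9l, also among these genes, differed in the opposite direction.

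**Figure D4:**
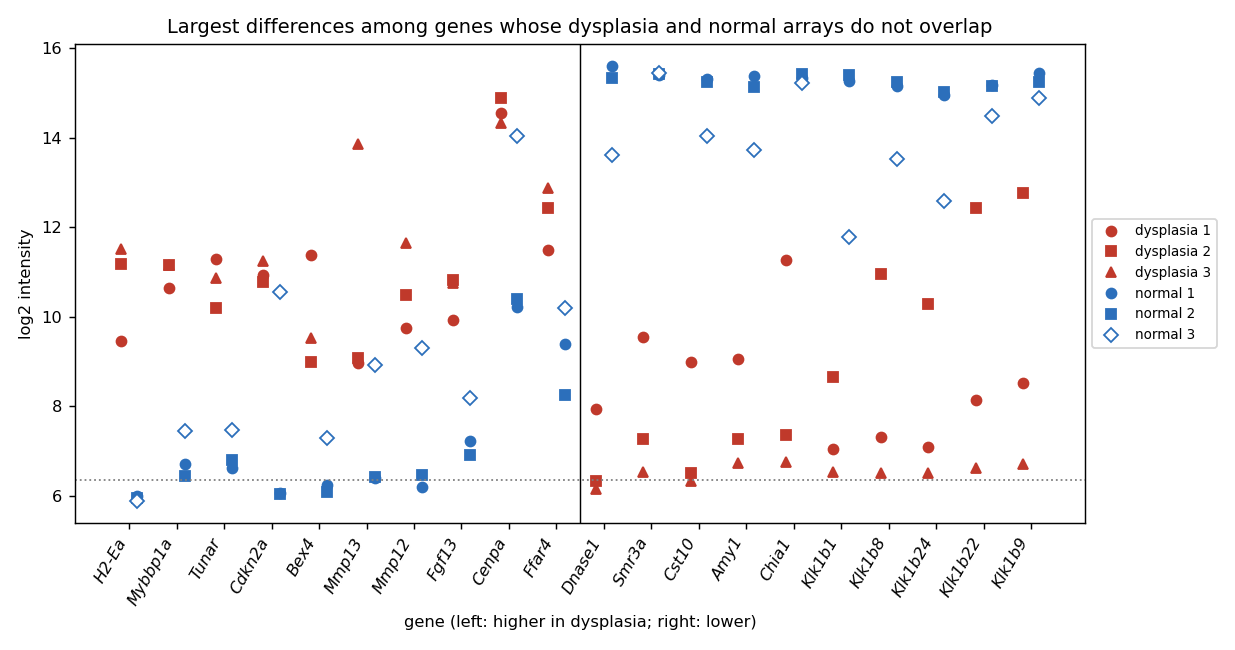
Log2 intensity on each array of the 10 genes with the largest differences in each direction among those at an unadjusted p under 0.05 whose groups do not overlap. Dysplasia arrays are red and drawn left of the normal arrays in blue, normal 3 is open, and the dotted line is background. H2-Ea stands at 9.46 to 11.52 in dysplasia and below 6 on every normal array, and Smr3a at 15.40 to 15.44 on the normal arrays and below 10 in dysplasia.

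Among genes of antigen presentation 1 class II chain ran against the others. H2-Ea, the alpha chain of the class II molecule I-E, was at 9.46, 11.17 and 11.52 in dysplasia against 5.99, 5.95 and 5.89 in normal glands, below background on all 3 normal arrays and thus at least 20.6-fold higher in dysplasia (unadjusted p = 0.0202, adjusted p = 0.174 on all 9 arrays, and 0.122 without normal 3). In adenocarcinomas it was at 13.64, 9.68 and 5.82. H2-Aa, the alpha chain of the other class II molecule, I-A, was at 9.04, 6.29 and 6.23 in dysplasia against 11.97, 12.13 and 11.15 in normal glands, and at 7.24, 8.89 and 11.48 in adenocarcinomas. Thus H2-Ea was above background on every dysplasia array, while H2-Aa was below background on all of them but dysplasia 1. Dysplasia 1 had both genes above background, at 9.46 for H2-Ea and 9.04 for H2-Aa. So had the adenocarcinomas with H2-Ea at 13.64 and 9.68, where H2-Aa was at 7.24 and 8.89. In the adenocarcinoma with H2-Ea below background, at 5.82, H2-Aa was at 11.48. Each gene was read by 1 probe. Of the probes of H2-Ab1, the beta chain of I-A, 1 followed the H2-Aa pattern, at 9.48, 6.45 and 6.59 in dysplasia against 13.14, 13.40 and 12.35 in normal glands, and the brightest, given next, did not. In mice these genes differ between strains by haplotype, and strains of haplotype b such as C57BL/6 make no H2-Ea transcript. The labels give no strain, and differences of genetic background between glands were not tested.

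Of the other class II genes, H2-Ab1, H2-Eb1, H2-Oa, H2-Ob and the invariant chain Cd74 fell. The loading factors H2-DMa and H2-DMb1 and the activator Ciita did not pass (adjusted p = 0.394, 0.782 and 0.501). The beta chains H2-Ab1 and H2-Eb1 were at 9.28, 9.84 and 10.29 and at 9.53, 9.93 and 10.16 in dysplasia, against 12.14, 12.43 and 11.68 and against 12.15, 12.61 and 11.47 in normal glands. Cd74 was at 10.01, 10.67 and 11.49 in dysplasia against 13.33, 13.65 and 12.69 in normal glands. In these 3 genes all dysplasia arrays were below all normal arrays. Of 19 presentation genes 6 fell and 2 rose, where 11.4% of all tested genes were called lower and 12.6% higher. Those that rose were the peptide transporter Tap1 and the immunoproteasome subunit Psmb8. The interferon regulatory factor Irf1 was at 12.75, 12.90 and 12.93 in dysplasia against 10.18, 10.38 and 12.62 in normal glands, but only 1 of 26 interferon response genes rose and 1 fell.

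Markers of lymphocytes, fat and muscle were lower on the dysplasia arrays than on normal 1 and 2. All 13 adipocyte genes tested fell, as did 7 of 9 T cell genes, 8 of 10 B and plasma cell genes and 11 of 31 chemokines and receptors. Over all tested genes 11.4% were called lower. A gene at background in dysplasia was tested only where at least 3 other arrays exceeded background. The fat marker Plin1, for example, did so on normal 1, normal 2 and adenocarcinoma 1 alone. The filter, which kept 13 of the 16 adipocyte genes on the array, thus favours members high on normal 1 and 2. These counts are a description and no independent support. The summed intensity of the adipocyte markers was 264, 985 and 430 in dysplasia, against 17483, 10514 and 1226 in normal glands, and that of the brown fat markers Ucp1 and Cidea 157, 197 and 209 against 16095, 7245 and 383. For T cell markers the sums were 330, 465 and 391 in dysplasia against 1959, 1965 and 561 in normal glands, and for B and plasma cells 235, 269 and 316 against 2260, 3223 and 450. The lymph node stroma markers Ccl21a, Ccl19 and Cxcl13 summed to 200, 387 and 467 in dysplasia against 4357, 4315 and 460 in normal glands. Skeletal muscle markers summed to 639, 508 and 1119 against 4583, 4450 and 1080, and 10 of 15 muscle genes did not overlap, although 0 passed the threshold (10.5% of all tested genes were lower with no overlap). Normal 1 and 2 held the high values in every one of these types and normal 3 lay near or above the dysplasia arrays. Dysplasia 1 had 0 of the tested adipocyte, B and plasma cell, lymph node stroma and mast cell markers above background. The part of adjoining fat, lymph node and muscle in the other differences between dysplasia and normal 1 and 2 was not tested.

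Contractile and stromal genes moved partly with them. Of 13 myoepithelial and smooth muscle genes 5 fell and 1 rose, where 11.4% of all tested genes were called lower and 12.6% higher. Those that fell included the smooth muscle myosin Myh11 at 6.05, 6.94 and 6.60 in dysplasia against 10.84, 11.08 and 7.19 in normal glands. The 1 that rose was Csrp1, a LIM domain protein, at 12.85, 12.75 and 12.74 against 6.998, 7.63 and 12.96. Summed myoepithelial markers were 2031, 6231 and 10355 in dysplasia against 22834, 27585 and 5288 in normal glands, and fibroblast markers 1205, 4084 and 10847 against 25542, 28300 and 5836. On normal 1 and 2 the fibroblast sum rested mainly on Dcn, at 14.30 and 14.53, while the other fibroblast markers were at 10.78 or lower. The basal cell markers Krt5, Krt14 and Trp63 summed to 251, 449 and 839 against 4270, 5934 and 896. Cxcl12, a stromal chemokine, was at 6.89, 7.97 and 8.60 in dysplasia against 11.89, 11.50 and 8.11 in normal glands. Endothelial markers overlapped, with sums of 992, 1522 and 2716 in dysplasia against 2842, 2393 and 2148 in normal glands. Of 20 endothelial genes 2 rose and 1 fell, both counts under the shares over all tested genes. On all 9 arrays 4 of the 20 were above 0 and the median log2 difference was -0.39. The genes that rose were the tip cell gene Esm1, by 3.50, and Angpt2, a destabilizer of vessels, by 2.13. Macrophage markers overlapped too, with sums of 2769, 7651 and 22504 in dysplasia against 7809, 9163 and 7280 in normal glands. Of 19 macrophage genes 3 rose, near the share over all genes, and 0 fell, with a median log2 difference of -0.01 without normal 3. Among the 3, Gpnmb, a lysosomal glycoprotein of activated macrophages, was at 11.52, 12.73 and 12.31 in dysplasia against 7.84, 7.65 and 12.31 in normal glands, and Trem2 rose by 1.76.

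The 3 dysplasia arrays differed from one another at specific genes. Dysplasia 3 was at least 4-fold above both other dysplasia arrays for 200 genes and below both for 21, against 34 and 39 for dysplasia 1 and 38 and 11 for dysplasia 2. The chitinase-like proteins Chil3, Chil4 and Chil1 were at 13.56, 12.85 and 13.88 on dysplasia 3 and below 7 on the other dysplasia arrays. The surfactant protein Sftpd was at 6.69, 6.36 and 13.29, the milk protein Csn3 at 6.71, 6.001 and 12.38, and the secreted airway and salivary protein Bpifb1 at 7.14, 11.28 and 14.28 on the dysplasia arrays. The interleukin 1 receptor antagonist Il1rn, above background on all 3 dysplasia arrays, was at 10.43, 9.79 and 14.40. Normal arrays had Chil3 at 6.09, 6.21 and 6.84, Sftpd at 8.70, 9.21 and 8.17 and Il1rn at 6.30, 6.28 and 11.30. Macrophage, fibroblast and erythroid marker sums were also highest on dysplasia 3 among the dysplasia arrays, and their part in these values was not tested. Dysplasia 2 kept more of the tubule products, with Klk1 at 14.57 against 11.19 and 12.16 on dysplasia 1 and 3. On dysplasia 1 Wdr11, a protein of endosomal traffic, was at 14.63, against 7.42 and 7.46 on dysplasia 2 and 3 and 7.80, 7.90 and 7.28 on normal arrays, by its only probe.

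**Figure D5:**
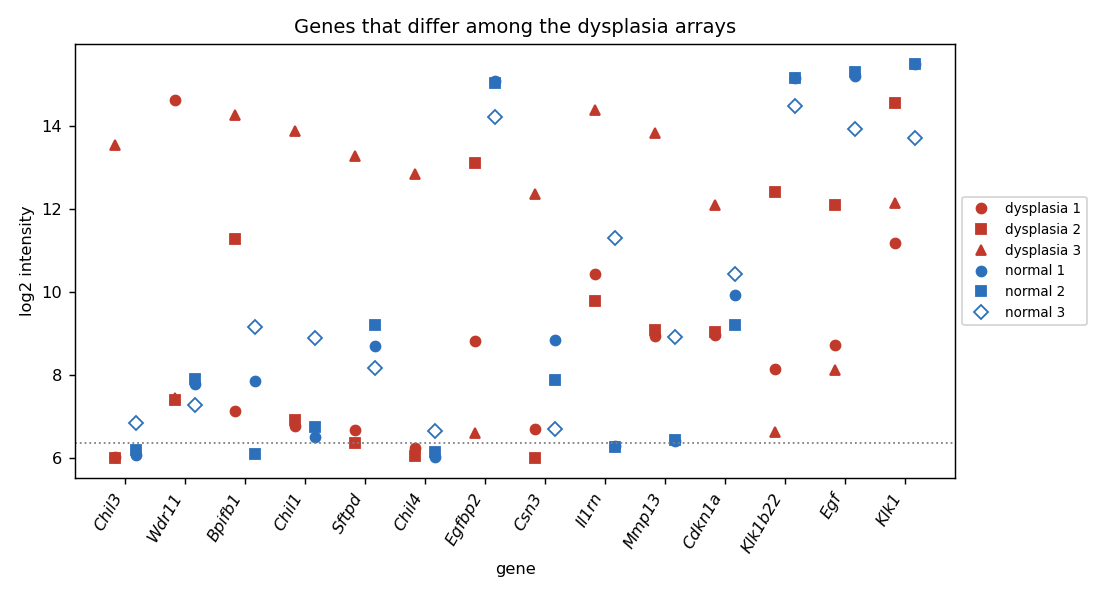
Log2 intensity on each array of genes that differ among the dysplasia arrays, with dysplasia arrays in red left of normal arrays in blue, normal 3 open, and the background level dotted. Chil3, Chil1, Sftpd and Csn3 are high on dysplasia 3 alone among the dysplasia arrays, Egf, Klk1 and Egfbp2 are highest there on dysplasia 2, and Wdr11 on dysplasia 1.

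Respiratory chain, endoplasmic reticulum and lipid synthesis lists had small median log2 differences without normal 3, at -0.52, -0.35 and -0.11. Each still had a larger share called lower than the 11.4% of all tested genes. Over all tested genes 12.6% were called higher. Of 30 respiratory chain genes 8 fell and 0 rose, with small differences such as Ndufa1 of complex I at 12.85, 12.86 and 12.54 in dysplasia against 14.01, 13.82 and 12.92 in normal glands. Of 27 genes of the endoplasmic reticulum and its stress response 7 fell and 0 rose. The ribosome receptor Rrbp1 was at 11.10, 11.21 and 11.11 in dysplasia against 13.16, 13.46 and 11.34 in normal glands by its brightest probe, and its probes disagreed in sign. The chaperone Dnajb9 and the translocon subunit Sec61a1 fell, at -1.77 and -1.23. Here the median place of normal 3 was 1.256 among the genes called, beyond dysplasia, while the acinar proteins made through this pathway stayed high on that array. In cholesterol and fatty acid synthesis 4 of 21 genes rose and 5 fell: the sterol enzyme Sqle was at 11.13, 11.21 and 11.11 in dysplasia against 9.63, 9.70 and 10.99 in normal glands, and the fatty acid desaturase Scd1, also abundant in fat, was at 11.12, 12.14 and 11.82 against 14.98, 14.51 and 12.89. Of 23 hypoxia and glycolysis genes 3 rose, near the 12.6% over all genes, and carbonic anhydrase Car9 rose by 2.18. For the EGF family (0 of 12 rose and 2 fell), the epithelial and mesenchymal regulators (0 of 19 rose and 2 fell) and the collagens and fibroblast matrix genes (1 of 22 rose and 3 fell), the shares called did not exceed those of all genes by more than a gene or so.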

How the data were processed

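Biotin-labelled total RNA was hybridised to Illumina BeadChips, with 3 arrays per group. The deposited values are linear intensities that the authors had quantile-normalized, as the equal sorted columns show (they differ by at most 0.0992%). Of tools, limma is named in the submitters' processing notes, with no version. Background correction is not given in the sources used here. Another table had 9 signal and 9 detection columns whose names match no label, and it was not used.

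Of 45281 probes, 34885 had 1 gene symbol, 18 several and 10378 none in the platform annotation. Of the named probes, 34807 matched RefSeq (GRCm38.p6) by Entrez identifier. Intensities were turned into log2. Background was the mode of the log2 values plus the 95th percentile of deviations below it (an intensity of 82.0). Each array had 22104 probes above it. A gene was read by its probe with the highest mean among those above background on at least 3 arrays, which left 12553 genes, 5224 with several such probes. Folds against a group below background use the background level and are lower bounds.

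Group means over 9 arrays (6 residual degrees of freedom) entered the moderated test of limma 3.58.1 (R 4.3.3), and p-values were adjusted by Benjamini-Hochberg over all genes. SE is the moderated standard error. With 3 arrays on each side the smallest p of an exact permutation test is 0.1, so none was run. The steps were tested on simulated data. The gene lists, the rule for named genes and the decision to read normal 3 apart were chosen with earlier results of these data known. Named genes were the 10 largest non-overlapping differences in each direction, the 8 largest in each direction past the threshold without normal 3 where normal 3 lay in the dysplasia range, the 8 widest ranges within dysplasia, the 6 lowest p in each direction, up to 5 members of each list and a fixed set. Slc12a2, Krt8, Bhlha15, Ascl3, Ano1, Scnn1a, Tap1, Psmb8, Azgp1, H2-Ob, H2-DMa, H2-DMb1, Ciita and Dcn were named as list or marker members after their values were seen. Clone names were left out. Of 116 named genes with several probes, 10 had probes that disagreed in sign. Alternatives were another pseudocount, normexp, cyclic loess, other filters and probe rules, array weights, a replicate block and leaving out each array. Figures were drawn with matplotlib 3.10.9.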

Additional observations from a re-analysis of the deposited data

How the results depend on the processing

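Only 3 arrays a group and the unequal normal arrays limit these comparisons. On all 9 arrays 0 genes passed in either direction (1519 higher and 1281 lower at an unadjusted p under 0.05). With array weights, which gave normal 3 a weight of 0.166, 4181 higher and 3625 lower genes passed, and 4453 and 3897 at the unadjusted p. With no filter on dim probes 1 lower gene passed. Leaving out 1 array at a time gave 0 to 1582 higher and 0 to 1429 lower genes past the threshold, the highest without normal 3. Without dysplasia 1, 2 lower genes passed, and without adenocarcinoma 2, 1 higher and 4 lower. At the unadjusted p the counts ran from 665 to 2601 higher and from 493 to 2172 lower. Counts without overlap ran from 1735 to 4059 higher and from 1477 to 3452 lower (1557 and 1324 on all arrays). The low ends at the unadjusted p came without normal 2, and the numbers were 725 and 517 without normal 1 and 976 and 841 without dysplasia 2. Without dysplasia 3, 2764 higher and 2327 lower genes did not overlap, and without dysplasia 1, 2051 lower. A replicate block left 0 genes past the threshold in either direction, with 1266 higher and 1157 lower at the unadjusted p. Deviations of same-numbered dysplasia and normal arrays from their group means correlated at -0.164, -0.081 and -0.194. Normal 3 shapes the deviations of every normal array, so these values cannot show whether equal numbers pair the arrays. Over 256 named genes and 5100 alternative values, 17 reversed, in 10 genes. Without dysplasia 3 the differences of Chil3, Chil1, Chil4, Sftpd, Csn3 and Cdkn1a were -0.36, -0.53, -0.12, -2.17, -1.46 and -0.86, against 2.15, 1.81, 2.11, 0.085, 0.55 and 0.17 on all arrays. Without dysplasia 1, Wdr11 was at -0.22 (2.18 on all arrays). With array weights Sftpd, Csn3, Cdkn1a and H2-DMb1 were at -2.32, -1.76, -0.26 and 0.081. Without normal 3, Sftpd, Csn3, H2-DMb1 and Aqp5 were at -0.18, -0.007, 0.27 and 0.04, without normal 2 Cdkn1a was at -0.15, and under cyclic loess Slc12a2 was at -0.052. Leaving out 1 array at a time, the highest values were 3.42 for Chil3, 3.02 for Chil1, 3.28 for Chil4, 1.29 for Sftpd, 1.73 for Csn3, 0.71 for Cdkn1a and 3.39 for Wdr11, and the lowest were -0.45 for H2-DMb1 and -0.34 for Aqp5. The cause was not tested. Under the other alternatives that keep all 9 arrays or the 6 compared, the counts stayed within 1.5 times those above. Cyclic loess shifted the median of all genes by -0.05 and gave 1275 higher and 1509 lower genes at the unadjusted p.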

Other observations

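Imprinted and homeobox genes gave few calls, but some had wide differences. Of 19 insulin-like growth factor and imprinted genes 1 rose and 4 fell without normal 3, where 12.6% of all tested genes were called higher and 11.4% lower. The growth factor Igf2 was at 6.55, 6.95 and 6.89 in dysplasia against 9.07, 9.09 and 7.31 in normal glands, and the paternally expressed gene Ndn at 6.98, 7.98 and 9.35 against 11.41, 10.94 and 8.23. Of 26 homeobox and paired box genes 1 rose and 3 fell. Otx1, a head patterning factor, was at 11.96, 10.99 and 10.04 in dysplasia against 6.05, 6.28 and 11.32 in normal glands, at least 24.9-fold above normal 1 and 2, which lay below background. Nkx2-3, a homeobox factor also listed among the gland regulators, was at 6.62, 6.53 and 6.76 in dysplasia against 9.69, 9.9996 and 7.22 in normal glands, with normal 3 closest to dysplasia.

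Of 18 nuclear hormone receptors 0 rose and 4 fell, where 12.6% of all tested genes were called higher and 11.4% lower. Pparg, the fat cell regulator, was at 6.67, 6.83 and 7.51 in dysplasia against 10.46, 9.91 and 7.59 in normal glands, highest on normal 1 and 2, as the fat markers were. Nr1h3, a sensor of oxysterols, was at 7.98, 7.78 and 7.81 in dysplasia against 8.93, 8.60 and 8.71 in normal glands, so normal 3 stood with normal 1 and 2. Of 22 immediate early and stress genes 2 rose and 2 fell, near the shares over all genes. Hspa1a, a heat shock protein, was at 8.06, 8.31 and 7.58 in dysplasia against 11.26, 9.40 and 6.84 in normal glands, and Fos at 9.74, 9.02 and 10.77 against 8.03, 7.65 and 9.22, so both overlapped once normal 3 was included.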
